A study of Mus musculus with 69 samples.

Results

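IL-15 is a cytokine that keeps memory CD8+ T cells alive and dividing. It signals through the receptor subunits IL-2Rβ and the common gamma chain, which switch on the kinases JAK1 and JAK3 and, downstream, the transcription factors STAT5A and STAT5B. Known STAT5 targets include Bcl2, which blocks cell death, the PIM kinases, and the feedback inhibitors Cish, Socs1 and Socs2. Effector memory cells (Tem) are the antigen-experienced cells that patrol tissues and hold transcripts for cytotoxic molecules ready.

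The response of wild type (WT) CD8+ Tem cells to IL-15 was read from 4 RNA-seq libraries, chosen by their labels out of 48 CD8+ T cell libraries and 69 samples in the series. The cells came from mice with all Stat5 alleles intact (Stat5a+/+ Stat5b+/+), and were sorted by surface markers, high CD44 among them, from pooled lymph nodes and spleen. 2 libraries were labelled as receiving no cytokine (NC) and 2 as receiving IL-15 for 12 to 16 hours. The labels describe a culture step for all libraries, whereas the methods of the study describe cells either taken directly ex vivo or cultured with cytokine, so culture and IL-15 cannot be told apart as the source of a difference. For comparison, WT naive (Tnv) and central memory (Tcm) cells were used, together with Tem cells from AAB mice (Stat5a-/- Stat5b+/-) and BBA mice (Stat5a+/- Stat5b-/-), which carry the deletions in the germline and thus in every cell, each with 2 NC and 2 IL-15 libraries. How many animals stood behind each library is not given in the labels. The study describes the RNA-seq replicates as biological, from mice assayed over repeated trials. The p-values measure the spread between libraries.

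The 4 WT Tem libraries held 11723977 to 16672146 counts on genes. The second IL-15 library stood apart. It held counts for 22638 genes, against 16657 to 19446 in the other 3, and 2250 CPM (counts normalised to library size) on 1461 olfactory and vomeronasal receptor genes, which T cells do not use, against 242 to 402 in the others. Its correlation with the first IL-15 library was 0.939 on the log2 CPM scale, while the NC libraries correlated at 0.985. The part of this library in the results is given below by leaving it out.

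The label was checked against marker genes. T cell genes were abundant, with Cd8a at 1907 and 1730 CPM in NC cells and 1706 and 1338 CPM with IL-15. On a scale shared by all CD8+ libraries, the chemokine gene Ccl5 stood at 1010 and 690 CPM in NC Tem cells, against 221 and 115 CPM in Tcm and 2.51 and 2.82 CPM in Tnv cells. Tbx21, the transcription factor T-bet, followed the same order, at 133 and 112, 80.6 and 69.0, and 3.60 and 3.98 CPM. Klrg1, a receptor of terminal effector cells, was low, at 9.71 and 10.1 CPM in NC cells on the scale of the 4 libraries, which all further CPM values use unless stated. The 7 B cell markers in the table summed to 191 and 410 CPM in NC and to 94.3 and 301 CPM with IL-15, higher in replicate 2 of both groups, and the 9 myeloid markers to 70.7 and 97.3 CPM and to 31.6 and 68.7 CPM. Their part in the results was not tested.

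Of 9827 genes that passed the filter on low counts, 149 differed between IL-15 and NC cells (edgeR quasi-likelihood test, Benjamini-Hochberg adjusted p below 0.05 and more than 1.5-fold), which is 1.52% of those tested. 59 genes were higher (0.6%) and 90 were lower with IL-15 (0.916%), so that 60.4% of the calls were decreases. The decreases were also larger: 62 genes fell by more than 2-fold, against 24 that rose by as much. All 149 genes had groups that did not overlap, as had 51.6% of all genes tested. Counts of called list members below are to be read against the shares of 0.6% higher and 0.916% lower. The count depended on the libraries. Without the second IL-15 library there were 609 calls, among them all 149, and without the first there were 1251, of which 868 were higher. Without NC replicate 1 only 30 genes were called and without NC replicate 2 only 14, although all 149 kept their direction in both cases. Where 1 library was left in a group, it was assumed to vary like the other group. Of the called genes described below, Mir142b, Cdk6, Pim1, Hspa1b, Fos, Junb, Ppp1r15a, Dtx1, Ddit4, Cd69, Cxcr4 and Scd2 passed under each left-out library, whereas the others lost the call without 1 or both of the NC libraries (Pmepa1 was not assessed in this way). Slc6a6 also lost it without the first IL-15 library. Libraries were made from bulk cells, in which fewer expressing cells and less RNA per cell cannot be told apart.

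**Figure D1:**
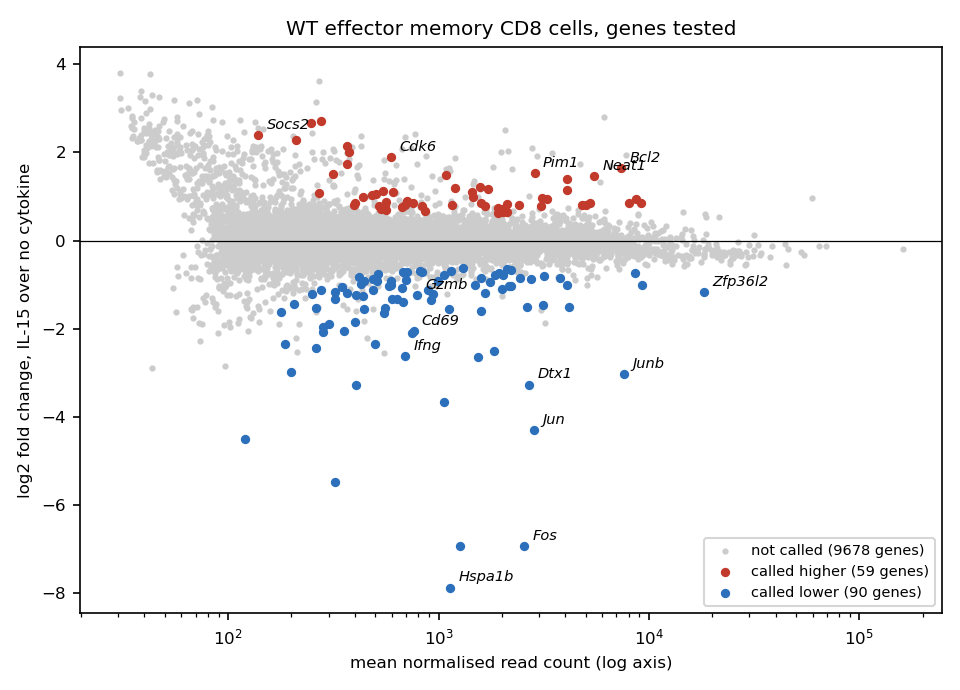
Each point is 1 of the 9827 genes tested, placed by its mean normalised read count over the 4 WT Tem libraries (log axis) and its log2 fold change with IL-15. The 59 genes called higher (red) stay below 3 on the log2 scale, while the 90 called lower (blue) reach -7.87.

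Genes of the IL-15 signalling pathway itself were considered first. Bcl2 (chr1:106538178-106714274, minus strand, GRCm38) encodes the founding inhibitor of mitochondrial cell death. Its transcript was at 284 and 252 CPM in NC cells and at 925 and 753 CPM with IL-15. It rose by 1.65 ± 0.14 (SE) on the log2 scale (edgeR adjusted p = 0.0177), a 3.13-fold difference with no overlap between groups. It was the only called gene among the 11 tested members of the BCL-2 family, whose median log2 change was 0.00. The pro-apoptotic Bcl2l11, at 86.8 and 80.9 CPM against 131 and 117 CPM, did not pass the test (adjusted p = 0.0701).

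Among 23 tested genes of cytokine feedback and early STAT5 targets, 4 rose and 3 fell, against 0.6% and 0.916% of all genes tested. Their median log2 change was -0.03, against 0.00 over all genes tested. Socs2, an inhibitor of cytokine signalling, went from 3.95 and 2.82 CPM to 18.03 and 17.4 CPM (log2 change 2.39 ± 0.31, edgeR adjusted p = 0.0343). Its relative Socs1 went from 63.9 and 78.1 CPM to 182 and 147 CPM (1.21 ± 0.15, adjusted p = 0.0328). The survival kinase Pim1 was at 87.8 and 134 CPM without cytokine and at 322 and 321 CPM with it (1.53 ± 0.21, adjusted p = 0.0364). Pim2 rose as well, from 155 and 161 CPM to 307 and 311 CPM. The other members followed no single direction: Cish, a classical STAT5 target, was at 47.9 and 34.7 CPM against 77.5 and 59.7 CPM and was not called (0.73 ± 0.20, adjusted p = 0.154). Il2ra, the high-affinity IL-2 receptor chain, was at 10.9 and 13.1 CPM against 19.9 and 24.6 CPM and was not called either (adjusted p = 0.0996). The members that fell were the phosphatase genes Ptpn6 (-0.85) and Dusp6 (-2.34) and the chemokine gene Xcl1 (-2.99).

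Of 19 receptors, JAKs and STATs of the common gamma chain family, none rose and 2 fell, against 0.6% and 0.916% of all genes tested. Jak3, the kinase bound to the common gamma chain, was at 382 and 421 CPM in NC cells and at 209 and 190 CPM with IL-15 (log2 change -1.01 ± 0.11, edgeR adjusted p = 0.0265). Il9r fell from 21.4 and 18.1 CPM to 6.15 and 6.71 CPM. The IL-15 receptor genes were not called, with Il2rb at 891 and 692 CPM against 1089 and 781 CPM, Il2rg at 603 and 629 CPM against 486 and 428 CPM, and Il15ra at 23.7 and 22.5 CPM against 16.9 in both. Stat5a (log2 change -0.03) and Stat5b (0.23) were not called.

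Apart from these lists, the genes with the largest increases held regulators of several kinds. The microRNA loci Mir142 (chr11:87756864-87756927, plus strand, GRCm38) and Mir142b (chr11:87756841-87756955, minus strand) stood first, at 3.32 and 6.99 against 28.5 and 37.1 CPM, and at 5.92 and 5.33 against 35.5 and 37.8 CPM. They overlap on opposite strands, so that their reads cannot be told apart without strand, and poly(A) libraries do not measure the mature microRNA. Ikzf4, a transcription factor of the Ikaros family, rose from 5.61 and 5.27 CPM to 28.3 and 24.7 CPM. Cdk6, a kinase that drives exit from G1, rose from 20.1 and 17.97 CPM to 74.7 and 67.3 CPM (1.90 ± 0.12, edgeR adjusted p = 0.0138). It was the only call among 10 tested D cyclins, G1 kinases and CDK inhibitors. Further increases were seen for Setbp1 (2.14), Mettl20 (2.01), the zinc transporter Slc30a4 (1.74), Acat2 (1.51), 2810474O19Rik (1.39) and the nuclear long noncoding RNA Neat1, at 202 and 237 against 642 and 565 CPM (1.46 on the log2 scale).

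**Figure D2:**
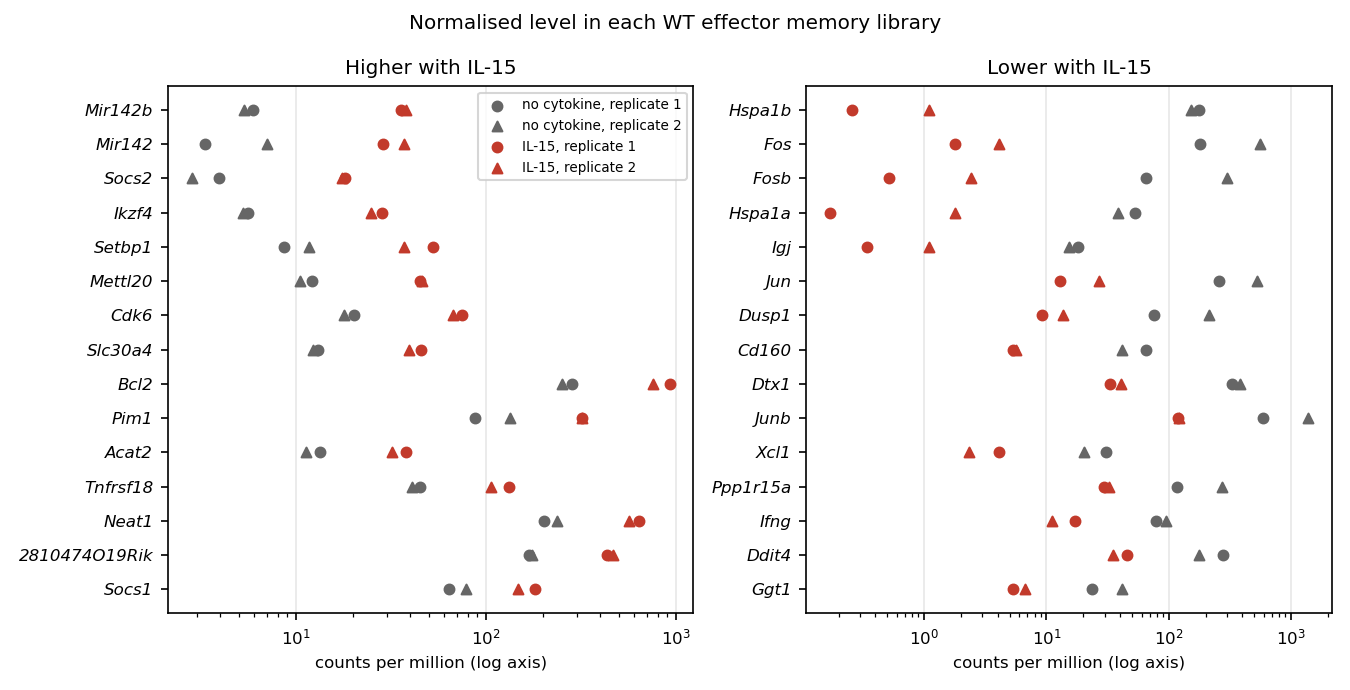
Normalised level (CPM, log axis) in each of the 4 WT Tem libraries for the 15 genes with the largest called increases (left) and decreases (right); grey marks NC and red IL-15, circles replicate 1 and triangles replicate 2. For Fos the NC libraries are at 180 and 554 CPM and the IL-15 libraries at 1.79 and 4.14 CPM.

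Decreases were led by stress and activation genes. Hspa1b and Hspa1a encode inducible HSP70 chaperones. Hspa1b (chr17:34956436-34959238, minus strand, GRCm38) fell from 175 and 152 CPM to 0.256 and 1.09 CPM (log2 change -7.87 ± 0.35, edgeR adjusted p = 0.00757). Hspa1a fell from 52.7 and 38.3 CPM to 0.171 and 1.79 CPM. Since they are near-identical neighbours, reads may be split between them. Dnajb1, which encodes a partner of these chaperones, fell from 188 and 214 CPM to 95.3 and 93.5 CPM. Hspa1b, Hspa1a and Dnajb1 were the 3 calls among 19 tested genes of heat shock and endoplasmic reticulum stress (median -0.28). Of all genes tested, 0.916% were called lower.

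Immediate early genes are transcribed within minutes of a stimulus and include the AP-1 factors and the phosphatases that restrain MAP kinases. 10 of 30 tested members fell and none rose, against 0.916% and 0.6% of all genes tested. The median log2 change was -1.55, and 24 had lower values in both IL-15 libraries than in both NC libraries, as had 26.2% of all genes tested. Fos (chr12:85473890-85477273, plus strand, GRCm38) was at 180 and 554 CPM in NC cells and at 1.79 and 4.14 CPM with IL-15 (-6.93 ± 0.74, edgeR adjusted p = 0.0244). Jun fell from 260 and 526 CPM to 12.8 and 27.1 CPM, and Junb from 595 and 1379 CPM to 120 and 121 CPM. Dusp1 fell from 75.4 and 213 CPM to 9.14 and 13.7 CPM. The NC libraries themselves differed for these genes, with replicate 2 higher than replicate 1 for Fos, Fosb, Jun, Junb and Dusp1. Egr1 (-2.54, adjusted p = 0.117) and Nr4a1 (-2.21, adjusted p = 0.204), which respond to T cell receptor signals, were lower in both IL-15 libraries but were not called. The early activation marker Cd69 fell from 78.9 and 100 CPM to 23.3 and 19.9 CPM, and the chemokine receptor Cxcr4 from 188 and 164 CPM to 61.3 and 54.5 CPM.

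Of genes of cytotoxic cells, 4 of 20 tested fell and none rose (median -0.52), against 0.916% and 0.6% of all genes tested. Gzmb (chr14:56258838-56262260, minus strand, GRCm38), which encodes granzyme B, was at 82.8 and 80.8 CPM in NC cells and at 36.7 and 32.9 CPM with IL-15 (log2 change -1.23 ± 0.10, edgeR adjusted p = 0.0177). Ifng, the gene of interferon gamma, fell from 78.6 and 95.0 CPM to 17.3 and 11.2 CPM. The chemokine genes Ccl4 (-2.36) and Xcl1 (-2.99) also fell. Prf1, encoding perforin, was at 169 and 150 CPM against 98.2 and 77.0 CPM and was not called (adjusted p = 0.0620). Gzmk had overlapping groups, at 67.3 and 18.1 CPM against 100 and 32.6 CPM, with replicate 1 higher in both groups.

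Type I interferon-stimulated genes, which serve antiviral defence, had a median log2 change of -0.68 over 34 tested members. 5 fell and none rose, and 27 were lower in both IL-15 libraries than in both NC libraries, against 0.916% called lower and 26.2% without overlap among all genes tested. Mx1 fell from 38.5 and 31.2 CPM to 10.7 and 8.11 CPM (log2 change -1.89 ± 0.20, edgeR adjusted p = 0.0244), and the regulator Irf7 from 87.2 and 106 CPM to 40.3 and 35.2 CPM (-1.36 ± 0.14, adjusted p = 0.0228). Rtp4, Ifih1 and Zbp1 made up the rest. Isg15 (-1.73, adjusted p = 0.0723) and Rsad2 (-2.28, adjusted p = 0.113) were not called.

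Other genes that fell included Ppp1r15a, a stress-induced regulator of translation, from 117 and 271 CPM to 29.4 and 32.7 CPM, and Ggt1, a glutathione-degrading enzyme, from 23.5 and 41.1 CPM to 5.38 and 6.63 CPM. Dtx1, a Notch pathway ubiquitin ligase, went from 329 and 382 CPM to 32.9 and 41.0 CPM (log2 change -3.27 ± 0.16, edgeR adjusted p = 0.00757). Cd160, an inhibitory receptor, went from 64.9 and 41.6 CPM to 5.30 and 5.62 CPM, and Tox, a factor of exhausted cells, from 45.3 and 38.4 CPM to 21.3 and 21.2 CPM. They were the 2 calls among 14 tested checkpoint genes, against 0.916% called lower among all genes tested. Ddit4, an inhibitor of mTORC1 that glucocorticoids induce, fell from 278 and 177 CPM to 45.5 and 34.8 CPM, and the glucocorticoid target Tsc22d3 from 336 and 342 CPM to 106 and 139 CPM. P2rx7, a receptor for extracellular ATP, fell from 40.5 and 43.7 CPM to 8.46 and 11.8 CPM. Igj, a plasma cell gene, fell from 18.1 and 15.3 CPM to 0.342 and 1.09 CPM. The sum over all 4 plasma cell markers was 41.6 and 35.2 CPM in NC and 15.04 and 23.4 CPM with IL-15. Of the others, Prdm1, which effector T cells also express, was at 22.97 and 18.5 CPM against 12.9 and 16.7 CPM, Sdc1 at 0.553 and 1.23 CPM against 1.79 and 5.07 CPM, and Tnfrsf17 at or near 0. The part of such cells in the difference was not tested.

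In the TNF superfamily 2 of 19 tested members rose and 1 fell, against 0.6% and 0.916% of all genes tested. Tnfrsf18, the co-stimulatory receptor GITR, rose from 45.1 and 40.7 CPM to 133 and 106 CPM (log2 change 1.48 ± 0.14, edgeR adjusted p = 0.0216), and Tnfrsf26 from 56.2 and 53.8 CPM to 116 and 137 CPM. Tnfsf14, the ligand LIGHT, fell from 52.6 and 39.3 CPM to 13.7 and 12.0 CPM. Among homing receptors and adhesion molecules, Itgb2, the shared chain of the beta-2 integrins, fell from 925 and 891 CPM to 487 and 415 CPM. With Cxcr4 and Cd69 it made up the 3 calls among 26 tested, against 0.916% called lower among all genes tested. Ccr7, which guides cells to lymph nodes, was at 251 and 297 CPM against 392 and 446 CPM (adjusted p = 0.0976).

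Genes of growth and division were read against 1.52% called over all genes tested. None of 37 ribosome biogenesis genes (median 0.06), 74 mitochondrial ribosomal proteins (-0.01), 73 nuclear-encoded subunits of oxidative phosphorylation (-0.05), 42 proteasome subunits (0.04), 20 aminoacyl-tRNA synthetases (0.02) or 19 glycolysis genes (-0.07) was called. The 77 cytosolic ribosomal proteins had a median log2 change of -0.29 with no call. Myc was at 125 and 176 CPM against 225 and 217 CPM and was not called (0.56 ± 0.17, edgeR adjusted p = 0.186). Of 31 genes of DNA replication 1 fell, Rrm2, from 36.2 and 32.4 CPM to 16.5 and 16.8 CPM, and the list's median was -0.21. None of 20 mitotic genes was called (median -0.39), with Mki67 at 156 and 131 CPM against 71.4 and 86.3 CPM (adjusted p = 0.0554). In cholesterol and fatty acid synthesis 2 of 31 tested genes rose and 1 fell (median 0.36), against 0.6% and 0.916% of all genes tested. Acat2 rose from 13.4 and 11.2 CPM to 38.0 and 32.0 CPM, and the desaturase gene Scd2 fell from 128 and 118 CPM to 42.3 and 42.0 CPM.

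Calls among genes that define T cell identity were likewise read against 1.52% over all genes tested. None of 24 effector and memory transcription factors was called (median -0.18), with Tbx21 at 130 and 109 CPM against 77.8 and 61.9 CPM (edgeR adjusted p = 0.0883). Of 19 naive and stem-like genes 1 fell, Myb (median 0.09). None of 25 genes of the T cell receptor complex (median -0.26), 16 genes of MHC class I presentation (-0.26) or 6 NK receptors carried by T cells (-0.40) was called. All 16 genes of MHC class I presentation had negative log2 changes, from -0.61 to -0.02, where the median over all genes tested was 0.003.

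The other lists held 1 call or none each, apart from the glucocorticoid-induced genes. In that list, Ddit4, Tsc22d3 and Cxcr4 fell and none rose among 12 tested (median -0.22), against 0.916% and 0.6% of all genes tested. Of 10 amino acid transporters 1 rose, the taurine transporter Slc6a6 (median 0.21). P2rx7 was the only call of 10 genes that sense extracellular nucleotides (median -0.23), and Ddit4 the only call of 21 mTORC1 regulators (0.18). The MYC-MAX network (10 tested, median 0.03), chaperonins (10 tested, -0.05) and nucleotide, serine and one-carbon synthesis (24 tested, -0.05) held none.

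**Figure D3:**
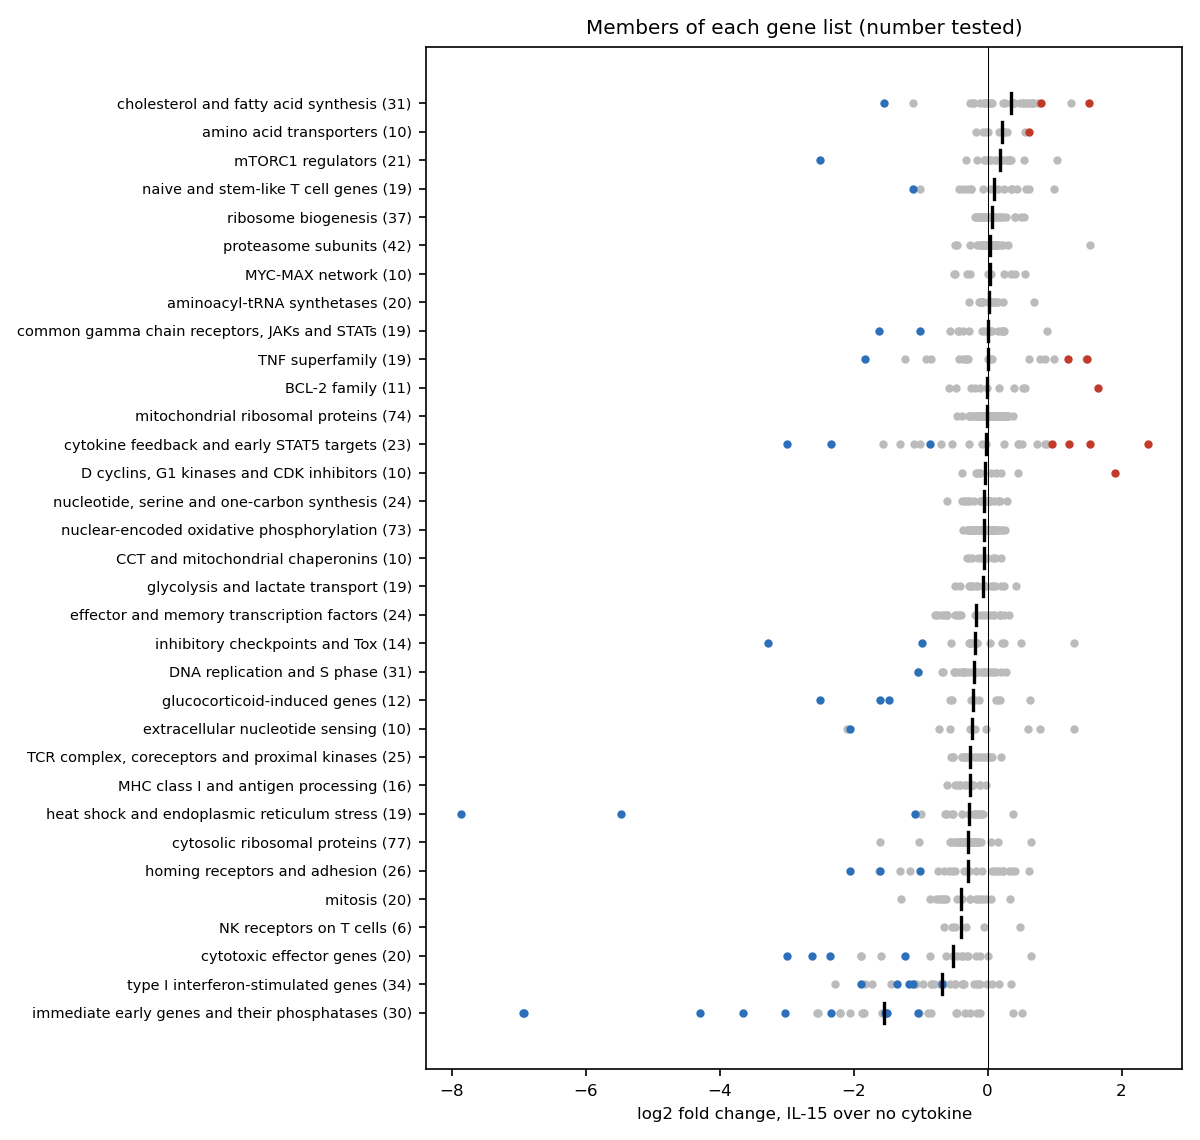
Each point is the log2 fold change of 1 tested member of a gene list, red where called higher and blue where called lower, and the black bar is the list's median; the number tested is in brackets. Immediate early genes have the lowest median, -1.55, and cholesterol and fatty acid synthesis the highest, 0.36.

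The promoter windows of RefSeq (GRCm38.p6, from 250 bases before to 50 after the annotated start) were searched for TTCNNNGAA, the core of the STAT5 binding motif, which reads the same on both strands. Only 36 of 59 called higher genes and 64 of 90 called lower genes matched a window, so the comparison of shares is void. Of all genes with a window, 9.55% held the motif in any of their windows. The windows of one gene that rose and one that fell are shown, with the motif in capitals. It begins at position -99 relative to the RefSeq start in Tnfrsf18 (chr4:156026072-156026371, plus strand) and at position 37 in Gzmb (chr14:56262285-56262584, minus strand). In GENCODE these genes start elsewhere. Tnfrsf18 begins there at 156026164, inside its window and before the motif, and Gzmb at 56262260, outside its window. A match is a stretch of letters and does not show binding.
Tnfrsf18: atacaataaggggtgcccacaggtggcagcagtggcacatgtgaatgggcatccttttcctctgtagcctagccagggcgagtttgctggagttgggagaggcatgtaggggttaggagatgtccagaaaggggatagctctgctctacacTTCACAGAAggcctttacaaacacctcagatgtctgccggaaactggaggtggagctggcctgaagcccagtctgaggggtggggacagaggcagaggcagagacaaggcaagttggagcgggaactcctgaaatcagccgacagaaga
Gzmb: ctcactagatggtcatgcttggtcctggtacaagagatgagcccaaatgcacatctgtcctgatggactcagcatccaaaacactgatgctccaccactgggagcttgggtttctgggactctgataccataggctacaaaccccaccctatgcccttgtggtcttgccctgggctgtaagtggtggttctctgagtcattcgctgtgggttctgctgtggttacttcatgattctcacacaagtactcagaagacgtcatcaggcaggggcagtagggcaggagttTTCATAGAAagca

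Next, the response of Tem cells was compared with that of WT Tnv and Tcm cells. With IL-15, 394 genes were called in Tnv cells (4.15%) and 577 in Tcm cells (6.03%). Of the 59 genes that rose in Tem cells, 36 of 59 tested also rose in Tnv and 38 of 58 in Tcm cells. Of the 90 that fell, 49 of 81 tested fell in Tnv and 70 of 89 in Tcm cells. 2 were called in the opposite direction in Tcm cells, Gzmb and Rrm2. The difference between responses was tested in a joint fit. 2 genes differed between Tem and Tnv (0.0198%) and 23 between Tem and Tcm (0.228%). These counts did not hold when single libraries were left out: none of the 23 was called without Tem NC replicate 1, without Tem NC replicate 2 or without Tcm IL-15 replicate 1. There were 3 calls without the second NC or the second IL-15 library of Tcm cells, and 15 without the second Tem IL-15 library. The count for Tnv fell to 0 without either NC replicate of Tnv or Tem, or without the second Tem IL-15 library, was 1 without Tnv IL-15 replicate 2, and rose to 92 and 29 without the first IL-15 library of Tnv and of Tem cells. The second IL-15 library of Tnv cells held Cd4 at 242 CPM and Foxp3 at 185 CPM on the scale of all CD8+ libraries, against at most 6.76 and 20.0 CPM in the other 3 Tnv libraries.

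Of the 23 genes whose response differed between Tem and Tcm cells, 9 were on the list of DNA replication genes. On the scale of these 8 libraries, Mcm5, a subunit of the replicative helicase, was at 85.7 and 88.0 CPM in NC and 59.7 and 64.8 CPM in IL-15 Tem cells, but went from 69.9 and 69.4 CPM to 221 and 190 CPM in Tcm cells (difference of log2 changes -2.04 ± 0.15, edgeR adjusted p = 0.00669). Lig1, a DNA ligase, differed by -1.99 ± 0.14 (adjusted p = 0.00669). All 9 differed in this direction. Of the 31 members of the list tested in Tem cells, 22 rose in Tcm cells, against 3.04% of all genes tested in Tcm cells. Gzmb moved in opposite directions, from 80.7 and 78.6 CPM to 36.0 and 32.1 CPM in Tem and from 4.54 and 2.49 CPM to 27.1 and 20.9 CPM in Tcm cells (-4.06 ± 0.34, adjusted p = 0.0110). After IL-15 the levels of Gzmb in both states were thus closer than before. Il7r, the IL-7 receptor, was at 777 and 737 CPM against 908 and 793 CPM in Tem cells, and fell from 670 and 698 CPM to 291 and 271 CPM in Tcm cells (1.45 ± 0.16, adjusted p = 0.0209). Pmepa1, a feedback inhibitor of TGF-β signalling, rose in Tem cells from 24.5 and 26.0 CPM to 56.6 and 53.3 CPM, and its response differed from that of both Tcm (1.49 ± 0.18, adjusted p = 0.0241) and Tnv cells (1.59 ± 0.13, adjusted p = 0.0448).

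**Figure D4:**
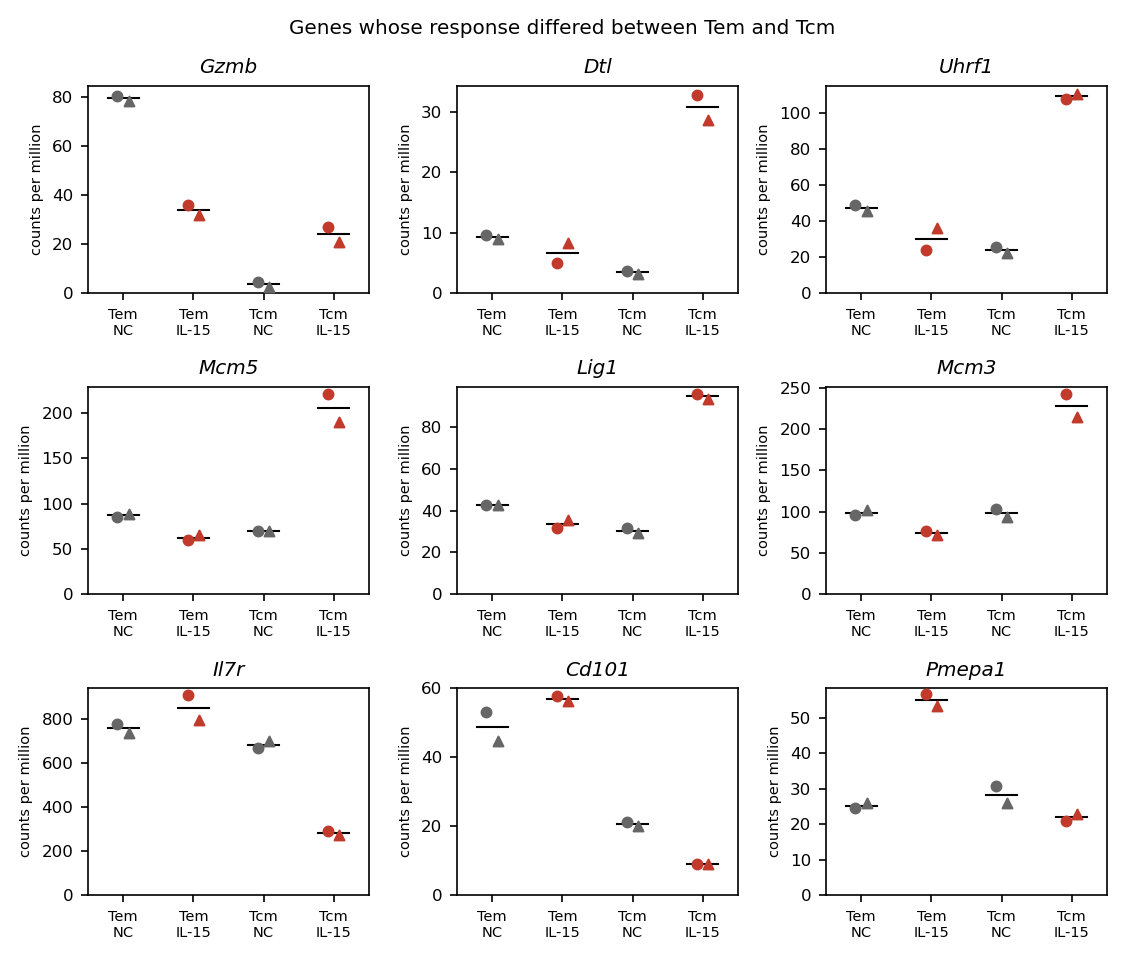
CPM on the scale of 8 libraries for 9 genes whose response to IL-15 differed between WT Tem and Tcm cells; points are libraries (circle replicate 1, triangle replicate 2), bars are means of 2. Mcm5 reaches 221 and 190 CPM in Tcm cells with IL-15 and 59.7 and 64.8 CPM in Tem cells.

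Finally, WT Tem cells were set beside Tem cells with 1 remaining Stat5 allele. On a scale shared by the 12 Tem libraries, Stat5a was at 72.2 and 88.5 CPM in WT, 2.99 and 2.35 CPM in AAB and 40.5 and 41.5 CPM in BBA NC cells. Stat5b was at 204 and 227 CPM in WT, 85.9 and 91.5 CPM in AAB and 56.0 and 70.7 CPM in BBA NC cells, so that reads on Stat5b remained in cells labelled Stat5b-/-. Between IL-15 and NC libraries, 94 genes differed in AAB (0.94%) and 42 in BBA Tem cells (0.432%). The second IL-15 libraries of AAB and BBA cells also held more CPM on olfactory and vomeronasal receptor genes (1588 and 3091) than the first (405 and 619), and without them 146 and 11 genes were called. Without the first IL-15 libraries there were 665 and 1826 calls, without the first NC libraries 19 and 0, and without the second NC libraries 46 and 2. Of the genes that fell in WT cells, all 90 had a negative log2 change in AAB and 87 in BBA cells. Their median log2 change was -1.20 in WT, -0.89 in AAB and -0.91 in BBA cells. Of the genes that rose, 57 of 58 tested were positive in AAB and 49 of 56 in BBA cells. Here the medians were 0.89 in WT, 0.70 in AAB and 0.67 in BBA cells. Both sets were chosen by their change in WT cells, which favours larger values there. No gene passed the edgeR test of a difference in response between WT and AAB or between WT and BBA cells (0% of genes tested). At an unadjusted p below 0.05 there were 508 of 10086 genes tested and 720 of 9652. A share of 0.05 is reached without any difference. DESeq2 called 30 and 87.

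The single genes described next were taken from the largest changes in WT cells, a choice that favours a larger change in WT than in the other genotypes. Hspa1b, at 184 and 162 CPM in WT NC cells on this scale, was at or below 1.36 CPM in every IL-15 library of the 3 genotypes. Bcl2 rose in all 3, from 299 and 267 CPM to 906 and 673 CPM in WT, from 192 and 167 CPM to 483 and 373 CPM in AAB, and from 85.7 and 86.9 CPM to 199 and 177 CPM in BBA cells. The difference in its log2 change was 0.30 ± 0.21 against AAB and 0.36 ± 0.19 against BBA cells. Cdk6 rose in WT cells, but was at 15.7 and 12.8 CPM against 14.6 and 14.2 CPM in AAB and at 16.6 and 18.6 CPM against 13.5 and 9.68 CPM in BBA cells. The difference in its log2 change was 1.79 ± 0.20 against AAB (edgeR adjusted p = 0.290) and 2.35 ± 0.23 against BBA cells (adjusted p = 0.136), neither past the threshold. Setbp1 differed by 2.28 ± 0.33 against AAB and 2.21 ± 0.49 against BBA cells, neither past the threshold, from NC levels that were 9.05 and 12.4 CPM in WT, 27.5 and 24.2 CPM in AAB and 41.9 and 23.5 CPM in BBA cells. Slc30a4 differed by 1.36 ± 0.21 and 1.55 ± 0.44, also not past the threshold.

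**Figure D5:**
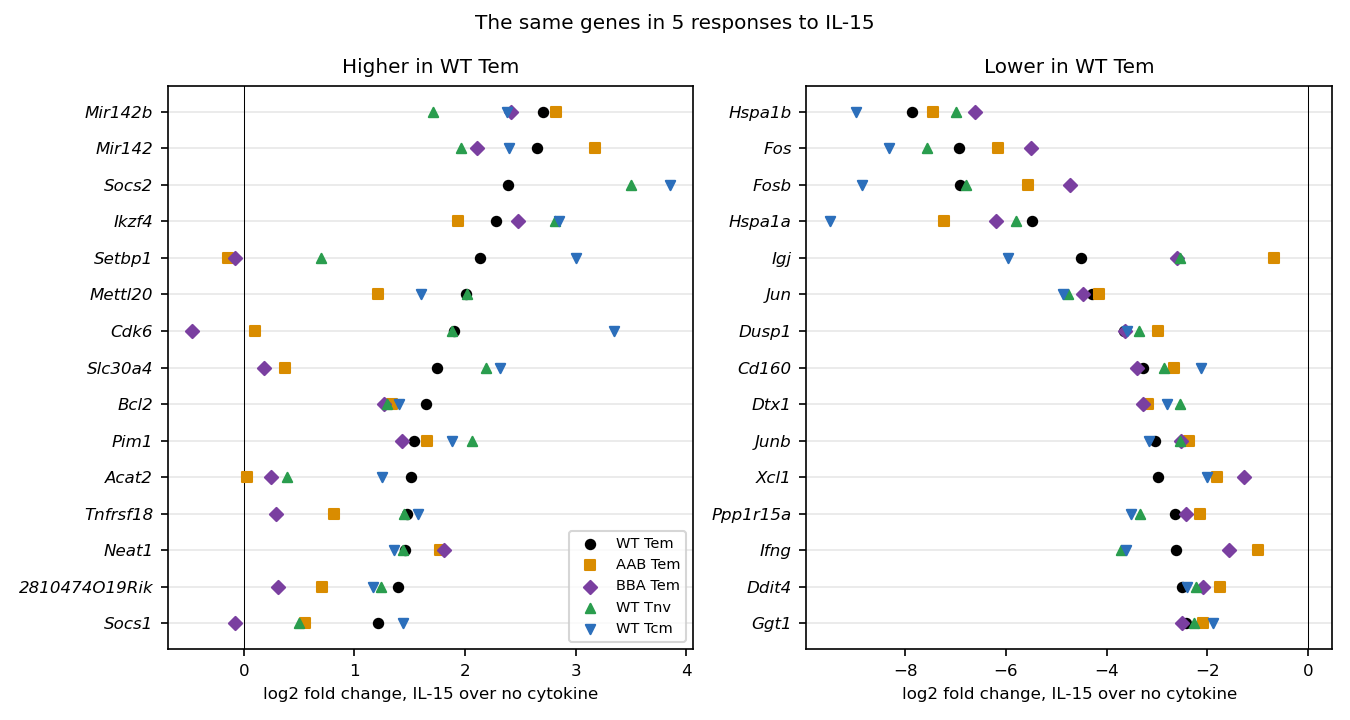
Log2 fold change with IL-15 in WT Tem cells (black) and in 4 other responses for the 15 largest increases (left) and decreases (right) of WT Tem cells; a missing symbol means that the gene did not pass that comparison's filter. Cdk6 stands at 1.90 in WT Tem cells, 0.10 in AAB and -0.47 in BBA Tem cells.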

How the data were processed

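Poly(A) RNA of sorted CD8+ T cells was sequenced, and the authors deposited raw read counts per gene symbol. The methods and the labels name TopHat2, Cufflinks and HTSeq. The methods give the build as mm10 and the submitters' processing notes as mm9, and positions here come from GENCODE for GRCm38 by symbol. Whether counting used strand is not given in the sources used here. The rule of HTSFilter was re-implemented (1 to 200 normalised counts, 100 thresholds), and genes above 107.5 normalised counts in any of the 4 WT Tem libraries were tested with edgeR 4.0.16 (R 4.3.3; TMM, quasi-likelihood, Benjamini-Hochberg). The study's methods also name HTSFilter and edgeR, and Bonferroni correction, which was run as an alternative. A gene was called at an adjusted p below 0.05 and over 1.5-fold. CPM were TMM-normalised. Levels are given per library (n = 2 per group), and SE is that of the log2 change. Genes were named from the 15 largest called changes per direction (mean normalised count 50 or more, groups not overlapping), the 5 smallest adjusted p-values per list (of which not all are described), 5 genes per direction for each difference between responses, Stat5a, Stat5b, Il2rb, Il2rg, Il15ra and cell type markers. Cish, Egr1, Nr4a1, Isg15 and Rsad2 were chosen after their values were seen. The lists and comparisons were chosen with earlier results of these data known. The fits were tested on simulated data. DESeq2 1.42.0, other filters, scalings, fits and left-out libraries were alternatives, 2 of them chosen after seeing the data. CD4+ and retroviral libraries were not used. Counting depth was 11723977 to 16672146 per library. Results for 2 genes of the lists are not reported here.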

Additional observations from a re-analysis of the deposited data

Results flagged for a closer look

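The responses of WT Tem and Tcm cells differed for 23 genes by a test of the difference itself. Among those with a mean of at least 50 normalised counts, the response was lower in Tem cells on the log2 scale for Gzmb (-4.06), Dtl (-3.64), Uhrf1 (-2.85), Chaf1a (-2.77) and Cdca7 (-2.56). It was higher in Tem cells for Pmepa1 (1.49), Il7r (1.45), Cd101 (1.41), Fam101b (1.14) and Fam46c (0.92). Dtl, Uhrf1 and Chaf1a serve DNA replication and chromatin assembly. The responses of WT Tem and Tnv cells differed for 2 genes, Slc16a5 (2.64), which fell in both states and by more in Tnv cells, and Pmepa1 (1.59). With 2 libraries per group, no library could be tested as standing apart within its group.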

How the results depend on the processing

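No named gene reversed its direction under the alternatives run, but the balance of calls did: 60.4% were decreases with all 4 libraries, whereas 868 genes were higher and 383 lower without the first IL-15 library. The WT Tem response counted 149 genes. It counted 403 with DESeq2 (170 higher, 233 lower), 537 with no filter on low counts, 16 with a test against 1.5-fold, 3 with Bonferroni adjustment, 86 above 2-fold and 237 in a fit with the Tcm libraries, which was chosen after seeing the data. It lay within 1.5 times of 149 under the other scalings, edgeR's newer quasi-likelihood fit, the filterByExpr filter (103), a filter passed in 2 libraries (216, also chosen after seeing the data) and fits over 12 (172) or 48 libraries (157). Without a filter 260 genes were higher and 277 lower, a more even split. Leaving out 1 library at a time gave 14 to 1251. For single named genes of the response, which include genes not called, 2496 values under alternatives kept their status, whether called or not called. In 174 values a call was lost and in 172 one was gained. For immediate early genes the 10 calls became 19 with DESeq2 and 6 with filterByExpr, and for interferon-stimulated genes the 5 became 11 with DESeq2.

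The difference between Tem and Tnv counted 2 genes, and 54 with DESeq2, 1 with the newer edgeR fit, 0 with filterByExpr, 194 without a filter and 0 to 92 with 1 library left out. Between Tem and Tcm the 23 genes became 141 with DESeq2, 209 without a filter, 36 in a fit over 48 libraries and 0 to 23 with 1 library left out. Between WT and AAB the 0 calls became 30 with DESeq2 and 5 without a filter, and between WT and BBA 87 with DESeq2, 5 without a filter and 20 over 48 libraries. The 94 calls in AAB cells became 407 with DESeq2, 38 with filterByExpr, 497 without a filter, 295 over 48 libraries and 19 to 665 with 1 library left out. The 42 calls in BBA cells became 847 with DESeq2, 78 with filterByExpr, 1297 without a filter, 1442 over 48 libraries and 0 to 1826 with 1 library left out. The cause of these shifts was not tested.

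The labels number the replicates of each group but do not say what a number marks. The deviations of same-numbered WT Tem libraries correlated at 0.445 over 9827 genes, from only 2 pairs, so the numbers were not taken to pair the libraries. With the replicate block, the counts were 582 for WT Tem cells, 7 for the difference from Tnv, 198 for that from Tcm, 10 between WT and AAB, 0 between WT and BBA, 840 in AAB and 1041 in BBA cells. With 2 libraries per group, small differences in genes of low count were not detectable. Larger differences in genes of higher count could also stay uncalled, as for the response of Cdk6 in WT against AAB and BBA cells. A gene that was not called is thus not shown to respond alike.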
